A study of Mus musculus with 4 samples.

Results

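Ribosome biogenesis factors are the proteins that transcribe, modify, cut and fold ribosomal RNA and assemble it with ribosomal proteins, and 53 mouse genes of this kind were followed on 4 expression arrays of NIH3T3 cells. The genes were taken by name, as every non-control probe whose gene name in the array files was on a list of 53, and all 53 were present, through 78 probes, among 34821 gene names or unnamed probes on the array. Of the 53 genes, 52 were measured, which required a probe to stand well above background on each array of a group. Utp18, whose product belongs to the small-subunit processome, had 1 probe, which was dim on all 4 arrays and passed that limit in neither group. NIH3T3 is an immortalised line of mouse embryonic fibroblasts. The cells of 1 group expressed wild-type EGFR, the receptor for epidermal growth factor, and those of the other a deletion mutant of EGFR, with 2 arrays in each group. The labels name no treatment and describe both groups as profiled at steady state. The labels do not give the extent of the deletion, the species or promoter of the introduced receptor, or whether the cells were clones. The 2 arrays of a group came from independent cDNA preparations, and separate cultures are not stated, so the spread behind each p-value may be technical only.

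Ribosomes are built mainly in the nucleolus. RNA polymerase I transcribes a long precursor RNA, small nucleolar ribonucleoproteins (snoRNPs) guide its methylation and pseudouridylation, and separate sets of factors cut it and fold it into the small and the large subunit. Growth factor signalling through the ERK and mTOR pathways and the transcription factor MYC are known to raise the output of this system in growing cells, and the rate of ribosome production sets a limit on cell growth. The 53 genes were ordered by role: 6 of RNA polymerase I and its initiation factors, 3 abundant nucleolar proteins, 8 snoRNP proteins, 18 factors of the small subunit and 18 of the large subunit.

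Levels are given as log2 of the background-subtracted spot brightness minus the 75th percentile of the same array, so that a value of 1 lies 2-fold above that percentile. They are relative to the other transcripts on the array and do not give RNA per cell, and in bulk RNA fewer cells with a transcript and less of it per cell cannot be told apart. On the wild-type arrays 46.9% and 45.3% of probes exceeded background clearly, and on the deletion-mutant arrays 43.8% and 42.9%. No spot was saturated, and the number of arrays limits the precision. The arrays shared 1 slide, where each group took its own column, so column and group cannot be told apart. All 10 fibroblast markers were measured, and 8 of them fell and 1 rose in deletion-mutant cells, with summed levels, on the linear scale, of 1945.1 and 2006.5 in wild-type and 1391.4 and 1433.7 in deletion-mutant cells; the part of this shift in the results was not tested. Of markers of other cell types, 1 of 6 epithelial (Krt8, higher), 2 of 5 endothelial (Pecam1 lower), 4 of 6 leukocyte (Itgam lower), 0 of 5 skeletal muscle and 1 of 5 adipocyte genes (Fabp4, lower) were measured, and Epcam, Cdh1, Cdh5, Ptprc, Myod1 and Adipoq were not well above background.

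Most ribosome biogenesis genes were higher in cells with the deletion mutant, most by less than 2-fold. Of the 52 measured genes, 45 rose and none fell (limma, adjusted p under 0.05 over 18093 features), while over all features 34.6% were called higher and 24.2% lower. At an unadjusted p under 0.05 none of the 52 was lower either, and no other tool was run. The median log2 fold change of the 52 genes was 0.65, or 1.57-fold, against 0.066 for all features, and 85.8% of all features lay below it. At least 1.5-fold rises were called for 34 members, against 16.6% of all features, and at least 2-fold rises for 3, Ddx21, Rrs1 and Dkc1, against 5.94%. None fell by either size, against 14% and 7.46% of all features. Both deletion-mutant arrays lay above both wild-type arrays for 46 of the 52, against 46.4% of all features, and below them for 2, against 35.3%. The 7 genes that did not pass were Polr1c, Npm1, Utp14a, Ddx10, Rrp1, Noc3l and Pes1.

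**Figure D1:**
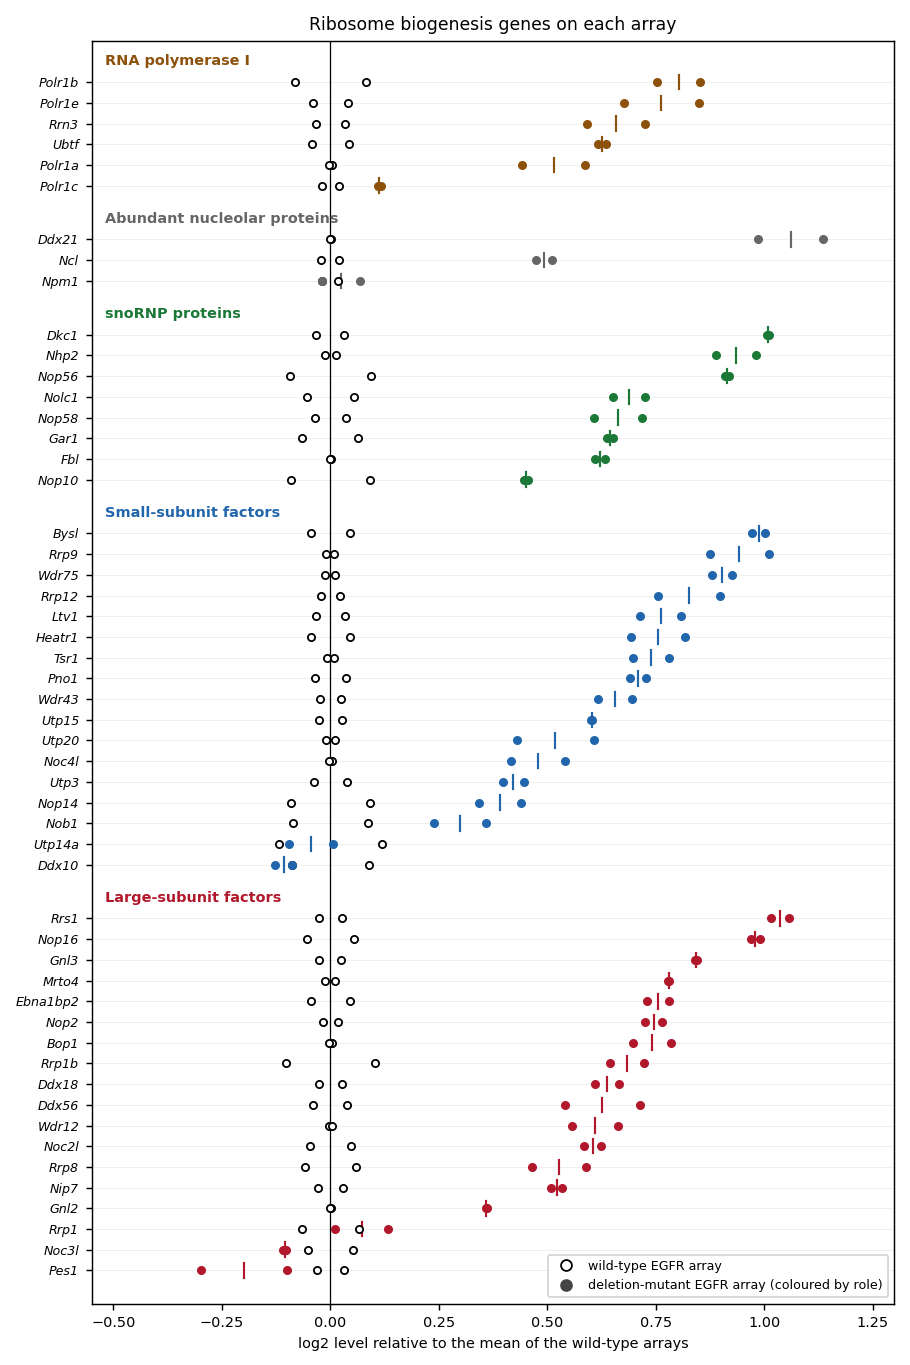
Level of each of the 52 measured genes on each array, on the log2 scale and relative to the mean of the wild-type arrays (open circles, wild type; filled circles, deletion mutant; vertical bars, deletion-mutant means), grouped by role. The deletion-mutant arrays lie to the right of both wild-type arrays for 46 genes, and the largest difference by the brightest probes shown is that of Ddx21 at 1.06.

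The scaling of the arrays moved the count of members called higher between 40 and 48 and that of members called lower between 0 and 3. With the 75th percentile of the probes detected on all 4 arrays, in place of that of all probes, 42 members rose and 3 fell (Pes1, Noc3l and Ddx10), while 23.6% of all features were called higher and 37.2% lower, and the members' median became 0.46 against -0.13 for all features. Of all called features, the higher share was 58.9% as reported, 38.9% under that percentile and 73.5% under median scaling. Quantile normalization gave 40 higher and 2 lower (Pes1 and Noc3l), beside 29.2% and 28% of all features. Median scaling gave 48 higher and none lower, with Polr1c, Npm1 and Rrp1 now called higher, beside 48.1% and 17.4% of all features. Which members rose at least 2-fold, a log2 difference of 1, moved too. Under the percentile of detected probes Ddx21 had 0.87 and Dkc1 0.81, whereas under median scaling Bysl had 1.17 and Nop16 1.16. With the scaling kept, normexp correction and trended robust variances each called 1 member lower, Pes1, beside 24.7% and 26.5% of all features. Of the 45 genes, 36 were called higher under each of 17 alternative settings, and the 9 that lost the call under at least 1 were Gnl2, Nob1, Noc4l, Nop10, Nop14, Rrp8, Ubtf, Utp20 and Utp3.

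**Figure D2:**
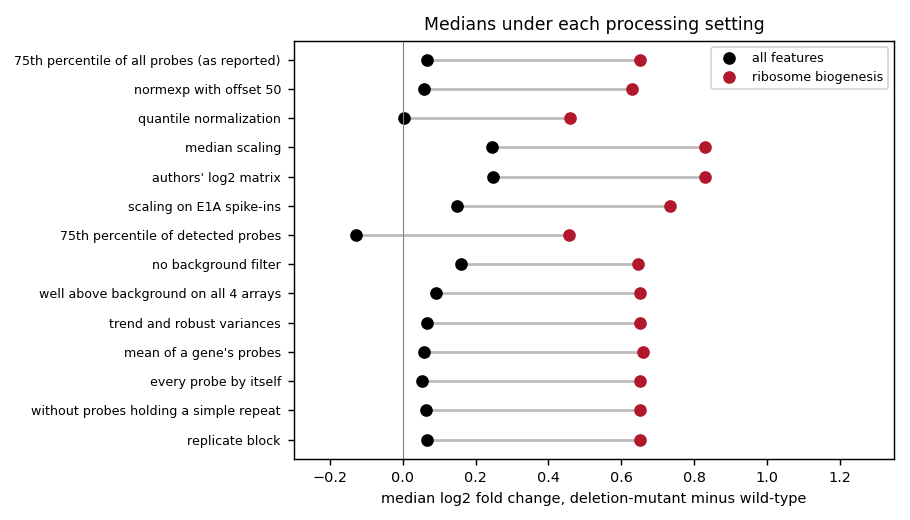
Median log2 fold change, deletion-mutant minus wild-type, of the ribosome biogenesis genes (red) and of all features (black) under each processing setting. Scalings that subtract a constant from each array move both medians together. These medians lie at 0.46 and -0.13 under the 75th percentile of detected probes and at 0.83 and 0.25 under median scaling. Quantile normalization gives 0.46 and 0.0043, with a smaller gap.

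Of the 6 members of RNA polymerase I and its initiation factors 5 rose, against 34.6% of all features, with a median of 0.64. Without the repeat probe of Ubtf, described below, that median was 0.59 and Ubtf was not called. Polr1b, the second-largest subunit of the polymerase, had 0.68 and 0.84 (log2 level) in wild-type and 1.51 and 1.61 in deletion-mutant cells. This was a rise of 1.74-fold (log2 difference 0.80 ± 0.085 SE, n = 2 in each group, adjusted p = 0.00265 by limma). Levels of the subunit gene Polr1e were 0.33 and 0.41 in wild-type and 1.04 and 1.22 in deletion-mutant cells, 1.70-fold higher. Rrn3, the initiation factor that links the polymerase to its promoter and that growth signals are known to control, went from 2.87 and 2.94 to 3.63 and 3.50, 1.58-fold higher. For these genes both deletion-mutant values lay above both wild-type values, which was so for 46.4% of all features. Polr1a, the largest and catalytic subunit, had 3.26 and 3.25 against 3.84 and 3.70, a 1.43-fold rise (limma adjusted p = 0.00584). Polr1c, a subunit that RNA polymerase III also uses, had 4.36 and 4.32 against 4.45 and 4.46. Its difference of 0.11 ± 0.056 (SE) did not pass (limma adjusted p = 0.152), although the arrays of the groups did not overlap, and it was called higher under median and spike-in scaling.

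Ubtf, the HMG-box protein that binds and opens ribosomal DNA, was called higher by 1 of its probes and not by the other. Its brightest probe had 7.02 and 6.94 in wild-type and 7.62 and 7.60 in deletion-mutant cells, 1.54-fold higher (limma adjusted p = 0.0022). That probe begins with a run of TG dinucleotides, as the first 30 bases of both Ubtf probes on mm9 show. They are printed to let the repeat be seen beside the unrepeated probe.
Ubtf probe A_55_P1992680, chr11:102167025-102167054, minus strand: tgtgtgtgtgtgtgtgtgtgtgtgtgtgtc
Ubtf probe A_55_P1992676, chr11:102167295-102167324, minus strand: aacgagacgtttcctaccgatctcggctgc
The probe without the repeat had 0.58 and 0.58 in wild-type and 0.44 and 0.19 in deletion-mutant cells, a difference of -0.26 that did not pass (limma adjusted p over all probes 0.100). The repeat probe was the 1 member probe of 78 with a mono- or dinucleotide repeat of at least 16 bases, against 0.513% of the probes kept. Without such probes on the array, a setting chosen after the values were seen, Ubtf was not called (-0.26, limma adjusted p = 0.0921). Then 4 of 6 Pol I genes rose, against 34.3% of all features, and the median of the 6 was 0.59. With the mean of its probes Ubtf was not called either (0.18, adjusted p = 0.0937).

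Among the genes of abundant nucleolar proteins, Ddx21 and Ncl rose, while the level of Npm1 differed little. Ddx21, a DEAD-box RNA helicase that acts in rRNA transcription and processing, had 1.78 and 1.77 in wild-type and 2.91 and 2.76 in deletion-mutant cells (brightest probe at chromosome 10, 62043317 to 62043376, mm9). It was 2.09-fold higher (difference 1.06 ± 0.075 SE, n = 2 per group, limma adjusted p = 0.00108), and its other probe gave 1.01. Its difference was the largest of the 52 as reported, but other members exceeded it under 4 alternatives: Rrs1 with normexp correction and without wild-type replicate 2, Dkc1 under quantile normalization, and Rrs1, Dkc1 and Nop16 without deletion-mutant replicate 1. Both other probes of Nop56 also gave slightly more than Ddx21. Both deletion-mutant values stood well clear of the wild-type pair, and the latter differed little between themselves. Ncl (nucleolin), a histone chaperone and RNA-binding protein of the nucleolus, rose from 6.37 and 6.33 to 6.86 and 6.82, 1.41-fold (adjusted p = 0.00333). Npm1 (nucleophosmin), another nucleolar chaperone, had 8.038 and 8.0004 in wild-type and 8.086 and 8.0008 in deletion-mutant cells, and the groups overlapped. Its difference was 0.025 ± 0.063 (SE, limma adjusted p = 0.759), its other 4 probes ranged from -0.13 to 0.10, and median scaling, which raises all values, called it higher.

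Transcripts of all 8 snoRNP proteins rose, against 34.6% of all features, with a median of 0.68. By the brightest probes Dkc1 and Nhp2 rose most. With the mean of a gene's probes Nop56 rose most, by 1.02 against 1.01 for Dkc1. Dkc1 (dyskerin), the pseudouridine synthase of box H/ACA snoRNPs and a part of telomerase, had 0.60 and 0.54 in wild-type and 1.58 and 1.58 in deletion-mutant cells (probe at chromosome X, 72354473 to 72354532, mm9). It was 2.01-fold higher (difference 1.01 ± 0.058 SE, limma adjusted p = 0.000752, n = 2 per group). Nhp2, another core protein of H/ACA snoRNPs, went from 5.35 and 5.37 to 6.34 and 6.25, 1.91-fold higher. The remaining H/ACA proteins were Gar1, at 1.56-fold, and Nop10, which had 3.76 and 3.94 against 4.31 and 4.30 (1.37-fold, limma adjusted p = 0.0117) and lost its call under quantile normalization. The range over the 4 H/ACA genes was thus 0.45 to 1.01. In box C/D snoRNPs, which guide ribose methylation, the scaffold protein gene Nop56 went from 5.47 and 5.29 to 6.30 and 6.29, 1.88-fold higher. Its other 2 probes gave 1.06 and 1.07, and the array files place the latter on chromosome X, whereas RefSeq has the gene on chromosome 2. Fbl (fibrillarin), the methyltransferase, had 3.76 and 3.76 against 4.37 and 4.39 (1.54-fold), and Gar1 had 4.71 and 4.84 against 5.42 and 5.41. For all 8 genes both deletion-mutant arrays lay above both wild-type arrays, as they did for 46.4% of all features. Nop58, the partner of Nop56, was 1.58-fold higher, and Nolc1, a chaperone of snoRNPs, 1.61-fold.

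Among 17 measured genes of small-subunit factors 15 rose, against 34.6% of all features. The median of the 17 was 0.66, with a range of -0.11 to 0.99. The largest rise was that of Bysl (bystin), needed for the late steps of small-subunit assembly, with 2.54 and 2.63 in wild-type and 3.58 and 3.55 in deletion-mutant cells (probe at chromosome 17, 47738282 to 47738341, mm9). It was 1.98-fold higher (difference 0.99 ± 0.063 SE, n = 2 per group, limma adjusted p = 0.000897). Rrp9, a protein of the U3 snoRNP, went from 1.05 and 1.03 to 2.05 and 1.92, 1.92-fold higher. Wdr75, of the UTP-A complex that binds the nascent precursor RNA, went from 2.92 and 2.90 to 3.84 and 3.79, 1.87-fold higher. The other UTP-A genes rose as well: Heatr1 1.69-fold, Wdr43 1.58-fold and Utp15 1.52-fold. Factors that act on late precursors of the small subunit, a group formed after the values were seen, had a median of 0.75. Against 34.6% of all features, 6 of 6 of these genes rose. Besides Bysl these were Rrp12 (1.77-fold), Ltv1 (1.69-fold), Tsr1 (1.67-fold), Pno1 (1.63-fold) and Nob1, the nuclease that makes the final cut in the small-subunit rRNA.

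The rise of Nob1 was small, and of the called members its call was lost most often. It had 0.74 and 0.56 in wild-type and 1.01 and 0.89 in deletion-mutant cells, 1.23-fold higher (limma adjusted p = 0.0485), and without any 1 of the 4 arrays its adjusted p lay between 0.058 and 0.170. Nop14 (1.31-fold, adjusted p = 0.0219) lost its call without wild-type replicate 2 (adjusted p = 0.0802) or deletion-mutant replicate 1 (adjusted p = 0.0702), and Utp20 (1.43-fold) without wild-type replicate 1 (adjusted p = 0.05, above the threshold before rounding). The smaller rises also included Noc4l, the partner of Nop14, at 1.39-fold and Utp3 at 1.34-fold. Utp14a, which activates an RNA helicase of the processome, had -0.70 and -0.46 in wild-type and -0.68 and -0.58 in deletion-mutant cells, a difference of -0.045 ± 0.104 (SE, limma adjusted p = 0.736). Ddx10, a DEAD-box helicase, had 0.56 and 0.74 against 0.52 and 0.56, a difference of -0.11 ± 0.083 (limma adjusted p = 0.322). The groups overlapped for both genes.

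Among 18 genes of large-subunit factors 15 rose, against 34.6% of all features. The median of the 18 was 0.63, with a range of -0.20 to 1.04. Rrs1, which brings the ribonucleoprotein of the smallest rRNA into the large subunit, had 2.61 and 2.66 in wild-type and 3.69 and 3.65 in deletion-mutant cells (probe at chromosome 1, 9537213 to 9537272, mm9). It was 2.05-fold higher (difference 1.04 ± 0.059 SE, n = 2 per group, limma adjusted p = 0.000723). Nop16, an assembly factor of the large subunit, went from 1.41 and 1.51 to 2.43 and 2.45, 1.97-fold higher. Gnl3 (nucleostemin), a nucleolar GTPase abundant in stem and tumour cells, went from 1.86 and 1.81 to 2.67 and 2.68, 1.79-fold higher, while the related GTPase Gnl2 was 1.28-fold higher. Each of these had both deletion-mutant arrays above both wild-type arrays, against 46.4% of all features. Mrto4, a homologue of a ribosomal stalk protein, was 1.72-fold higher, Ebna1bp2 1.69-fold, and the rRNA methyltransferases Nop2 1.68-fold and Rrp8 1.44-fold. The helicases Ddx18 (1.56-fold) and Ddx56 (1.54-fold), the assembly factors Noc2l (1.52-fold) and Nip7 (1.44-fold), and Rrp1b (1.61-fold) made up the rest of those that rose, with Bop1 and Wdr12.

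Bop1, Pes1 and Wdr12 form the PeBoW complex, which is needed to process the large-subunit rRNA, and their values differed. Bop1 rose 1.67-fold (limma adjusted p = 0.00156). Pes1 had 3.21 and 3.27 in wild-type and 3.14 and 2.95 in deletion-mutant cells by its brightest probe, a difference of -0.20 ± 0.090 (SE, limma adjusted p = 0.126), the lowest of the 52 genes. The second Pes1 probe, over 60 bases of the same chromosome and strand, had -0.92 and -0.97 against -0.32 and -0.41 and was called higher (0.58, limma adjusted p over all probes 0.00416). The first 30 bases of both probes, on mm9, show that they read different stretches.
Pes1 probe A_55_P2045792, chr11:3879948-3879977, plus strand: aagtatgtatggctcacacttccacattgt
Pes1 probe A_55_P2023094, chr11:3873303-3873332, plus strand: attcagttgtgccgtaggctcactgtggag
Which of the 2 better reports the Pes1 messenger was not tested. The brightest probe was called lower with normexp correction (adjusted p = 0.0417), quantile normalization (0.0202), the percentile of detected probes (0.0195) and trended robust variances (0.0204). For Wdr12, the brightest probe (1.53-fold) is placed by the array files on chromosome 7, whereas RefSeq has the gene on chromosome 1, and the probe on chromosome 1 was called higher by 0.24 (limma adjusted p over all probes 0.0434). Rrp1, a paralogue of Rrp1b, had 5.35 and 5.48 against 5.55 and 5.43, a difference of 0.072 ± 0.082 (limma adjusted p = 0.489) with overlapping groups. Noc3l, the partner of Noc2l, had 1.72 and 1.83 against 1.67 and 1.67, a difference of -0.11 ± 0.065 (limma adjusted p = 0.227).

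The median rises of the 3 main roles lay within 0.024 of each other. Medians were 0.64 for Pol I, 0.66 for the small subunit and 0.63 for the large subunit, or 0.59, 0.66 and 0.63 without the repeat probe of Ubtf. The small-subunit median exceeded the large-subunit median by 0.024, which turned to -0.0159 with normexp correction and lay between -0.0461 and 0.075 when 1 array was left out. The large-subunit median minus the Pol I median was -0.0101, and it was 0.14 with the mean of a gene's probes. Genes of a role are not replicates, and no test between the roles was made.

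**Figure D3:**
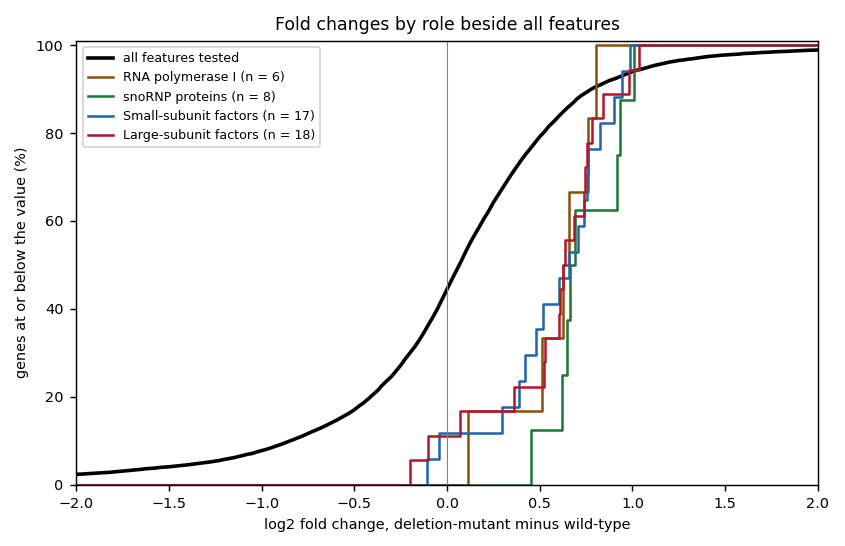
Cumulative share of genes (%) at or below each log2 fold change, deletion-mutant minus wild-type, for 4 roles (coloured steps) and for all 18093 features (black line, drawn from -2 to 2). The 4 steps lie close together and to the right of the black line over most of their range, with medians of 0.63 to 0.68 against 0.066.

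Of other genes of the same pathway, 107 by name and none of them among the 53, most rose as well. Nifk was not found by name and Ttf1 was not measured. Of the 105 measured, 82 rose and none fell by the adjusted p, against 34.6% and 24.2% of all features, with a median of 0.44. Gltscr2 (now Nop53) was the 1 gene lower at an unadjusted p under 0.05 by limma. By the percentile of the detected probes 59 rose and 10 fell, against 23.6% and 37.2% of all features. Among 36 small-subunit genes 28 rose, with a median of 0.40. Wdr36 (1.93-fold) and Cirh1a (now Utp4, 1.88-fold), both of the processome, rose most. The lowest values were those of Utp6 (-0.14) and Rrp36 (-0.10), which did not pass. The kept Utp6 probe was far brighter than those of the others in this list, with 7.70 and 7.82 in wild-type cells against 4.78 and 4.84 for Imp3. In the large-subunit list 33 of 40 rose, with a median of 0.49. Eftud1 (now Efl1), the GTPase that helps to release Eif6 from the large subunit, rose 2.47-fold from 2.02 and 2.07 to 3.33 and 3.37 (limma adjusted p = 0.000487), more than any member. Wdr74 rose 1.89-fold, whereas Gltscr2 (-0.17, limma adjusted p = 0.0558) and Nsa2 (-0.12) did not pass. Of 13 genes of the RNA exosome, which trims rRNA precursors, 12 rose, led by Exosc8 (2.17-fold) and Exosc6 (2.11-fold). Mphosph6 (1.22-fold) rose least and Exosc2 (-0.062) did not pass. The Exosc2 probe had 9.18 and 9.20 in wild-type cells, far above the next brightest exosome gene, Exosc9, at 4.52 and 4.37. Whether that probe reads Exosc2 alone was not tested. Of 8 further snoRNP genes 7 rose, from Nhp2l1 (now Snu13, 1.32-fold) to Shq1 (1.62-fold) and Ruvbl2 (1.70-fold), and Nufip1 (-0.0079) did not pass.

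Beside 5 of 6 members with a median of 0.64 (0.59 without the repeat probe of Ubtf), 2 of 8 other Pol I genes rose. That share is near the 34.6% of all features, and the median of these other genes was 0.059. The 2 that rose were Taf1d (1.33-fold, limma adjusted p = 0.00472), of the promoter-selectivity factor, and Polr1d (1.19-fold, adjusted p = 0.0217), which like Polr1c is shared with RNA polymerase III. Polr1d had 4.64 and 4.63 against 4.86 and 4.91, and its call was lost without any 1 of the 4 arrays (adjusted p between 0.0552 and 0.0943) and under quantile normalization (-0.0003). The lowest values were those of the subunit gene Znrd1 (-0.10) and of Taf1c (-0.063), which did not pass. Shq1 lost its call without either wild-type array (adjusted p = 0.0724 and 0.0936), and Mphosph6 likewise (0.063 and 0.06). Whether members and other genes of a role differ was not tested.

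**Figure D4:**
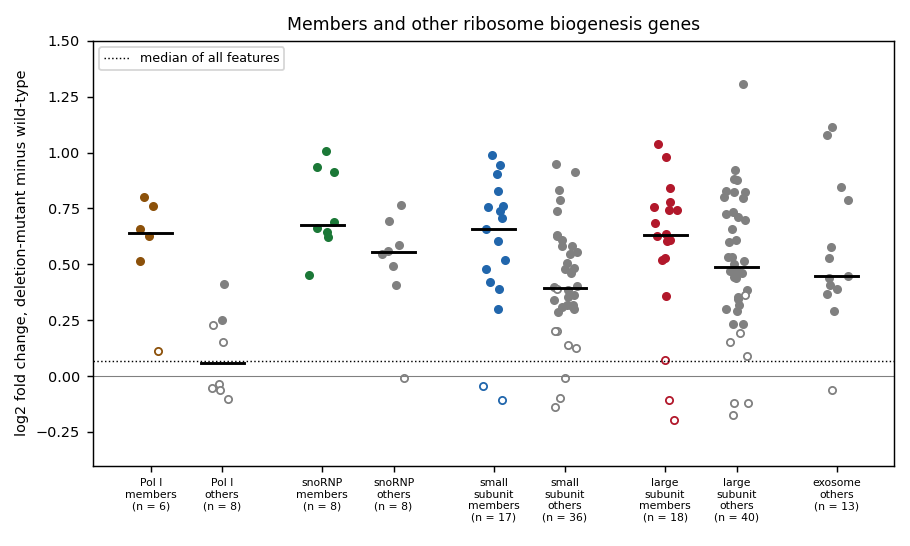
Log2 fold change, deletion-mutant minus wild-type, of each member (coloured) and each other gene of the pathway (grey) by role; filled points passed an adjusted p of 0.05, open points did not, and black bars are medians. The other Pol I genes have a median of 0.059, close to that of all features (dotted line, 0.066), and the other groups have medians of 0.40 to 0.68.

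For 18 members several probes were kept, which lets probes under the same gene name be compared. Of 23 further probes, 19 had the same call as the brightest probe of their gene, 4 had another call and none was called in the opposite direction. The 4 belonged to Pes1, Ubtf, Ebna1bp2 and Polr1a. Ebna1bp2 gave 0.75 by its brightest probe, 1.01 by another and 0.29 by the remaining one, which did not pass, and the second probe of Polr1a gave 0.24 (limma adjusted p over all probes 0.0669). Counted by probe, 58 of 75 were called higher and none lower, against 32.6% and 24.1% of all probes. RefSeq and the array files placed 74 of the 78 probes on the same chromosome and 3 on different ones, those for Wdr12, Nop56 and Mrto4, and 1 probe, for Noc2l, had no position. Whether those 3 probes read the transcript of the named gene was not tested.

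**Figure D5:**
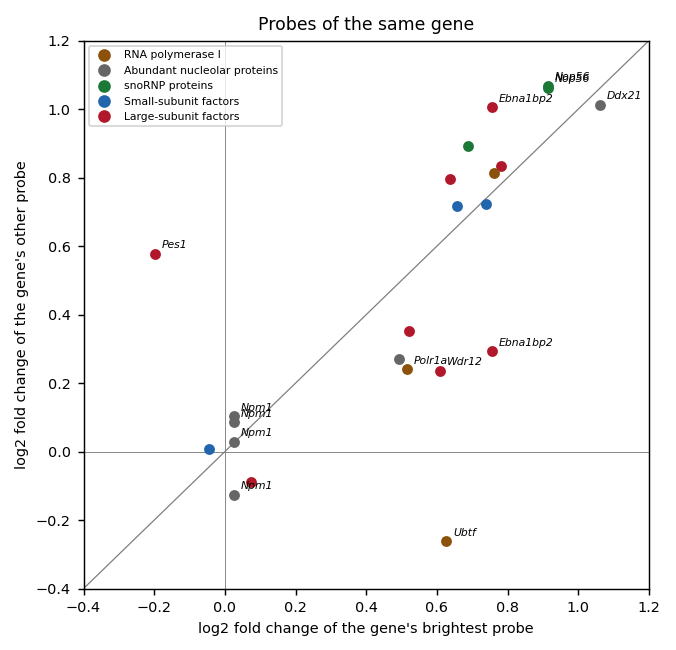
Log2 fold change of each further kept probe (vertical axis) against that of the brightest probe of the same gene (horizontal axis), 23 probes of 18 genes, coloured by role; the grey diagonal marks equal values. Pes1 (-0.20 and 0.58) and Ubtf (0.63 and -0.26) lie farthest from the diagonal.

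MYC and its partners bind the E-box CACGTG, a palindrome that reads the same on both strands, and many genes of ribosome production are known targets. RefSeq promoter windows of GRCm38.p6, from 250 bases before to 50 after a gene's start, were at hand for 47 of the 53 members, and 9 of the 47 (19.1%) held CACGTG, against 8.09% of 27025 genes and 11.6% of the 9453 of them that were tested on the array. Upstream of the start the share was 6.38% of members (3 genes) against 6.86% of all and 9.76% of tested genes, and in the first 50 bases, a window chosen after the values were seen, it was 12.8% (6 genes) against 1.28% of all and 1.87% of tested genes. The matches are shown with their flanks, with the E-box in capitals, to let their surroundings be compared.
Ltv1, chr10:13193092-13193121, minus strand: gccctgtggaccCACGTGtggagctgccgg
Nop2, chr6:125131811-125131840, plus strand: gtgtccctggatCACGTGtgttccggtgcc
Pes1, chr11:3963965-3963994, plus strand: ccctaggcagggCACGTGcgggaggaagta
Pno1, chr11:17211540-17211564, minus strand: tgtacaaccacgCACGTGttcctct
Rrn3, chr16:13780472-13780501, plus strand: gagcgccaaggtCACGTGcacacgcctcta
Rrn3, chr16:13780639-13780668, plus strand: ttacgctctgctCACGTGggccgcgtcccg
Tsr1, chr11:74898092-74898121, plus strand: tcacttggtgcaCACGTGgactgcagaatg
Utp18, chr11:93885769-93885798, minus strand: gcgagcgccggtCACGTGgcttgcggcggc
Utp20, chr10:88826765-88826789, minus strand: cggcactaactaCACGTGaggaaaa
Wdr43, chr17:71616220-71616249, plus strand: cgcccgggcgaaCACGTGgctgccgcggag
Counting the start as base 1, the matches in Pes1, Wdr43, Tsr1, Ltv1, Pno1 and Utp20 begin at bases 3, 18, 25, 29, 38 and 38, and those of Utp18, Rrn3 and Nop2 begin 20, 48 and 60 bases before the start, with a second match of Rrn3 at 215 before it. Of these 9 genes 7 rose, Pes1 did not pass and Utp18 was not measured. Of all 52 measured members 45 rose, and of all features 34.6%. The median log2 fold change was 0.68 for the 8 measured genes with CACGTG and 0.63 for the 38 without it. The wider pattern CANNTG was in 63.8% of members, against 20265 of 27025 genes and 67.4% of tested genes. A match describes the letters only, and no binding was measured.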

How the data were processed

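RNA of 2 wild-type and 2 deletion-mutant samples was labelled with Cy3 and hybridised to 1-colour Agilent arrays, per the labels. Per the file headers the scans were read with Feature Extraction 10.10.1.1 (protocol GE1_1010_Sep10), with probe positions on mm9, and the deposited files give each spot's intensity after background subtraction and detrending, the raw intensity and background, and other columns that are flags per spot. A matrix of log2 values deposited by the authors differed from log2 of the processed signal by a fixed amount in each array (100% of probes within 0.01).

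Spots marked as uneven or as outliers and control spots were left out, repeated spots of 1 probe were averaged on the log2 scale, and each array's 75th percentile was subtracted. The 25162 probes well above background on both arrays of a group were kept, and a gene was represented by its brightest kept probe, which gave 18093 features. Groups were compared with limma 3.58.1 in R 4.3.3 (lmFit and eBayes, 2 residual and 2.18 prior degrees of freedom), with Benjamini-Hochberg adjustment over all features and a threshold of 0.05. The procedure was also run on simulated data with independent noise and few changed features, which does not test the calls in these data. The members, their roles, the lists and the alternatives were chosen with earlier results of these data known. Values on each array are given for Ddx21, Rrs1, the Pol I genes, and the 3 highest and 3 lowest members of each other role, and from the other genes the 2 highest and 2 lowest of each role are named. Names given as current came from RefSeq by accession. Protein sequences and the exon or untranslated position of probes were not analysed here. Complexes were grouped, and the search for repeats in probes was added, after the values were seen.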

Additional observations from a re-analysis of the deposited data

How the results depend on the processing

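Alternatives were another background correction (normexp, offset 50), scaling, filter, variance model, rule for probes, the replicate number as a block, leaving out each array and, chosen after the data were seen, leaving out probes with simple repeats. The count of members called higher was lowest at 37 with no background filter, where 10.7% of all features were higher. It was highest at 48 under median scaling and with the authors' log2 values, where 48.1% were. With every probe tested by itself 58 of 75 probes were higher, against 32.6% of all probes. Members called lower numbered 1 with normexp, 2 under quantile normalization, 3 under the 75th percentile of detected probes and 1 with trended robust variances. Of all features 24.7%, 28%, 37.2% and 26.5% were lower under these settings. Without 1 array, the median of the members was 0.63 to 0.67, against 0.0585 to 0.0749 for all features. A lone array was assumed to vary like the other group.

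The median of the members was 0.63 with normexp, 0.46 under quantile normalization, 0.83 under median scaling and with the authors' log2 values, 0.73 on E1A spike-ins and 0.46 under the percentile of detected probes, and 0.63 to 0.67 without 1 array. In the same order without normexp, the Pol I median was 0.47, 0.82, 0.82, 0.72 and 0.45, then 0.52 with the mean of probes and 0.59 without repeat probes. The small-subunit median was 0.59 with normexp, then 0.48, 0.84, 0.84, 0.74 and 0.46, and 0.63 with no background filter, 0.69 with the mean of probes and 0.68 for every probe. The large-subunit median was 0.60 with normexp, then 0.47, 0.81, 0.81, 0.71 and 0.44, and 0.66 with the mean of probes. Without 1 array these 3 medians ranged from 0.60 to 0.66, from 0.62 to 0.69 and from 0.62 to 0.66. The members' median exceeded that of all features by 0.58, by 0.45 under quantile normalization, 0.49 with no filter, 0.56 with the filter on all 4 arrays and 0.57 to 0.59 without 1 array.

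The small-subunit minus the large-subunit median was -0.0159 with normexp, 0.0058 under quantile normalization, 0.0002 with no filter, 0.065 for every probe and -0.0461 to 0.0748 without 1 array. The large-subunit minus the Pol I median was -0.0421 with normexp, 0.14 with the mean of probes, 0.046 without repeat probes and -0.0077 to 0.012 without 1 array. The median of all features turned to -0.13 under the percentile of detected probes.

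Over all features, 3741 of 34816 were higher and 2725 lower with no filter, and 6727 of 18093 were lower under the percentile of detected probes. Of the other pathway genes, 49 were higher with no filter, against 10.7% of all features. With normexp, quantile normalization and the percentile of detected probes 1, 5 and 10 were lower, against 24.7%, 28% and 37.2% of all features. With the filter on all 4 arrays and with trended variances 1 and 2 were lower, against 23.6% and 26.5%. For every probe by itself 1 was lower, against 24.1% of all probes. E-box matches numbered 3 members before the start, 30 for CANNTG and 6 in the first 50 bases. Ubtf turned to -0.26 without repeat probes, and Polr1d to -0.0003 under quantile normalization.

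The replicate numbers of the groups, which also mark the row of the slide, are not stated to pair the samples, and with only 2 pairs the data could not settle it: the correlation of same-numbered deviations was 0.047 over all features and 0.33 over the members. With the replicate block 45 members were higher and 0 lower, against 32.5% and 22.8% of all features, with a members' median of 0.65. Why a setting moves a value was not tested. With 2 arrays per group, the call of a difference depended on the setting up to 0.53 (log2, Rrp8, adjusted p = 0.0531 with no background filter) among members whose probe was unchanged.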
